A study of Drosophila melanogaster with 20 samples.

Results

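The Polycomb and Trithorax group genes of *Drosophila* were followed in nascent RNA of Kc167 cells, an embryonic cell line, in which dsRNA had been used to deplete GAF or Mi-2. The set was a list of 38 FlyBase gene symbols, 20 of the Polycomb group and 18 of the Trithorax group, drawn up by gene name, with earlier results of these data known. All 38 had a row among the 17659 genes of the count table, *calypso* as *caly*. Compared were 2 libraries of the GAF knockdown (replicates 2 and 3) and 2 libraries of the Mi-2 knockdown (replicates 1 and 2), from a series of 20 samples on insulator proteins and AGO2, and GAF knockdown replicate 1 was not analysed here. GAF (GAGA factor) binds GA-rich DNA and is the product of *Trl*. Mi-2 uses ATP to remodel nucleosomes. Both groups received dsRNA, and all cells were fed 0.2 mM of the uridine analog EU over 1 h so that newly made RNA could be captured and sequenced as 50 bp reads (neuRNA-seq). No mock treatment was analysed here, so every difference below sets one knockdown against the other, and which of the knockdowns moved a gene cannot be told apart. The labels do not say whether the libraries came from separate cultures, so the p-values measure only the spread between these libraries.

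Polycomb group proteins keep developmental genes such as the Hox genes silent, and Trithorax group proteins counteract them and keep the same genes active. Polycomb repressive complex 2 (PRC2) methylates histone H3 at lysine 27, a mark bound by the chromodomain protein Polycomb of PRC1, which also ubiquitylates histone H2A. The Trithorax group holds the histone H3 lysine 4 methyltransferase complexes of the COMPASS family, the ATP-dependent remodelers of the Brahma class (BAP and PBAP), and regulators of RNA polymerase II such as the kinase module of Mediator. Both proteins that were knocked down have ties to these groups: GAF binds many Polycomb response elements and its gene is named *Trithorax-like*, and Mi-2 was linked to Polycomb silencing in the fly.

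Counts on genes were 6111424 and 12563919 in GAF knockdown replicates 2 and 3, against 3966515 and 5686837 in Mi-2 knockdown replicates 1 and 2. Genes were compared by edgeR's quasi-likelihood test over the 7826 genes that passed a filter on low counts, and a gene was called at a Benjamini-Hochberg adjusted p under 0.1. Levels are given as CPM, each count relative to its scaled library total, and fold changes are log2 values for GAF knockdown over Mi-2 knockdown. Of the targeted genes, *Mi-2* had 431 and 436 CPM in the GAF knockdown, against 300 and 311 CPM in the Mi-2 knockdown (log2 fold change 0.50, adjusted p = 0.0109, and 0.146 or 0.184 without GAF knockdown replicate 2 or 3). *Trl* had only 43 and 138 counts in the GAF knockdown, against 53 and 68 counts in the Mi-2 knockdown. That is 6.97 and 10.9 CPM against 13.4 and 12.3 CPM. Both GAF knockdown libraries were lower, and the difference was not called (log2 fold change -0.51, adjusted p = 0.566). Other genes of the same strand cover 80.5% of *Trl* and 72.0% of *Mi-2*, and reads there were not counted, so these counts are no full measure of either gene. Kc167 cells are regarded as hemocyte-like, and hemocyte markers had a summed level of 7680 to 7830 CPM in the GAF knockdown and 6830 to 7190 CPM in the Mi-2 knockdown. Called higher were 3 of 9 tested markers (*Pxn*, *vkg* and *Col4a1*, 33.3%), against 3.40% of all genes. Of the 9, 7 had positive and 2 negative log2 fold changes. The negative ones were *crq*, lower without overlap but not called (-0.38, adjusted p = 0.314), and *ush* (-0.03). *NimC1*, a defining hemocyte marker, was under 1 CPM in every library. The neuron markers summed to 147 to 183 CPM in the GAF knockdown and to 330 to 375 CPM in the Mi-2 knockdown, and *brp* among them was called lower (log2 fold change -1.40, adjusted p = 0.000265). Most of this gap was *brp*, with 108 and 94 against 249 and 283 CPM. *elav* was lower without a call (log2 fold change -0.47, adjusted p = 0.237), and *nSyb* overlapped between the groups (log2 fold change 0.69). The germ line markers summed to 19.3 to 26.5 CPM in the GAF knockdown and to 40.9 to 52.7 CPM in the Mi-2 knockdown, and *aub* was called lower (log2 fold change -1.23, adjusted p = 0.0236). That gap was *aub*, with 15.9 and 20.4 against 36.8 and 48.6 CPM. *bam* and *piwi* overlapped between the groups, and *vas* had 9 and 1 counts in the GAF knockdown against 0 and 0 in the Mi-2 knockdown. With GAF knockdown replicate 2 or 3 left out, *Pxn* and *brp* were still called and *vkg*, *Col4a1* and *aub* were not (adjusted p = 0.104 to 0.396). The other marker lists had no call. Muscle markers summed to 8.57 to 12.5 CPM in the GAF knockdown against 8.07 to 14.6 CPM in the Mi-2 knockdown. Spermatocyte markers summed to 25.6 to 26.6 against 26.2 to 32 CPM, and fat body markers to at most 0.236 CPM. *Sxl*, expressed in female cells, had 922 and 1040 against 1120 and 1060 CPM, and the male *roX* RNAs were too low to test. The part of these marker lists in the results below was not tested.

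Of the 38 genes, 36 passed the filter, and 4 of them were higher in the GAF knockdown by the test: *Kdm2* of the Polycomb group and *mor*, *osa* and *polybromo* of the Trithorax group. None was lower, also at an unadjusted p under 0.05, where 7 were higher and 0 lower, and DESeq2 called 4 higher and 0 lower as well. Over the 7826 genes tested, 698 were higher and 873 lower at that unadjusted p, and DESeq2 called 340 higher and 542 lower. The same counts over all genes apply to the smaller sets below. By edgeR at the adjusted threshold, 3.40% of all genes tested were called higher and 6.06% lower. Of the Polycomb genes, 1 of 18 tested (5.56%) was called higher, and of the Trithorax genes 3 of 18 (16.7%). Most of the differences were small and of one sign: 29 of the 36 genes had a positive log2 fold change and 7 a negative one, with a median of 0.19, while 49.7% of all genes tested were positive, with a median of 0.00.

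The sign was also seen in the single libraries. In 18 of the 36 genes (50.0%) both GAF knockdown libraries lay above both Mi-2 knockdown libraries, against 24.8% of all genes, and in 2, *ph-p* and *sxc*, both lay below, against 26.0% of all genes. The CPM of the 38 genes together came to 12200 and 12300 in the GAF knockdown, against 10800 and 11700 in the Mi-2 knockdown. Mi-2 knockdown replicate 1, the library with the fewest counts, was the lowest of the 4 libraries for 17 of the 36 genes (47.2%), against 32.7% of all genes. The part of this library in the positive differences is given below by leaving it out. The genes were well measured, with a median mean level of 220 CPM against 41.6 CPM over all genes tested. The median difference between replicates on the log2 scale was 0.09 in the GAF knockdown and 0.16 in the Mi-2 knockdown, against 0.20 and 0.26 over all genes. Of the 36 genes, 34 lay above the median level of all genes. The shares given over all genes were not matched for level or replicate spread, so they are no like-for-like background.

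**Figure D1:**
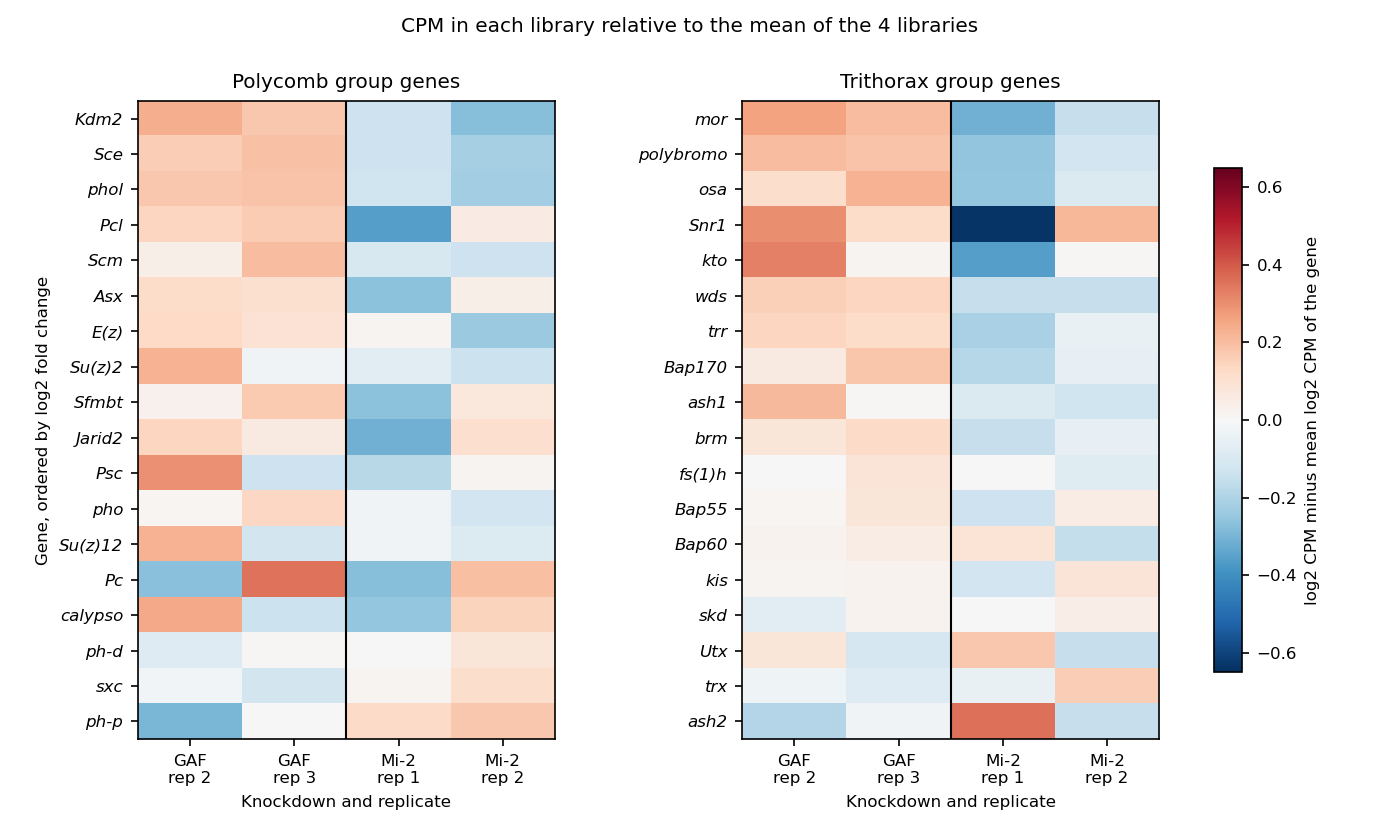
log2 CPM of each tested gene in each library minus the mean of the gene over the 4 libraries, for Polycomb genes (left) and Trithorax genes (right), ordered from the largest to the smallest log2 fold change. Red is above and blue below the gene's mean. The GAF knockdown columns are mostly red and the Mi-2 knockdown columns mostly blue, and both GAF knockdown libraries lie above both Mi-2 knockdown libraries in 18 of the 36 genes.

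Levels differed widely between the genes. Per kb of gene body, on the part that no other gene of the same strand covers, the median of the 18 Trithorax genes was 37.2 CPM per kb and that of the 18 tested Polycomb genes 20.3 CPM per kb, against 15.6 CPM per kb over 7707 genes tested with such a part. Of the 10 highest of the set, 7 were Trithorax genes, and of the 10 lowest tested, 7 were Polycomb genes. These are levels, not differences between knockdowns, and the orders below are descriptions.

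The highest Trithorax gene was *Bap170*, a subunit found in the PBAP form of the remodeler, with 71.6 and 77.9 CPM per kb in the GAF knockdown against 60.2 and 66.0 CPM per kb in the Mi-2 knockdown. It was followed by *kis*, a chromodomain helicase, with 62.8 and 63.2 against 57.2 and 65.9 CPM per kb. Next by mean came *fs(1)h*, a BET bromodomain protein, with 49.5 and 52.6 against 49.6 and 46.9 CPM per kb. *Bap170* lay above *kis* within each library, by as little as 66.0 against 65.9 CPM per kb in Mi-2 knockdown replicate 2, and *fs(1)h* lay below both in every library. The third place was a tie, since *Bap55* had the same mean of 49.6 CPM per kb and *mor* a mean of 49.0 CPM per kb. The lowest Trithorax genes by mean were *Snr1*, a core subunit of the remodeler, *ash2*, a core subunit of COMPASS, and *Utx*, a histone H3 lysine 27 demethylase. *Snr1* had 21.9 and 19.3 CPM per kb in the GAF knockdown against 11.5 and 20.6 in the Mi-2 knockdown. It stood below *skd* (17.9 and 19.1 against 18.7 and 19.3 CPM per kb) only in Mi-2 knockdown replicate 1. *ash2* had 13.4 and 15.1 against 19.6 and 13.8 CPM per kb. *Utx* had 13.9 and 12.1 against 14.8 and 11.8 CPM per kb, so the ranges of *Snr1*, *ash2* and *Utx* overlapped.

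In the Polycomb group *Scm*, a SAM domain protein that binds PRC1, was highest, with 59.2 and 66.2 CPM per kb in the GAF knockdown against 53.6 and 52.5 CPM per kb in the Mi-2 knockdown. *Pcl*, a PHD finger subunit of PRC2, had 53.5 and 54.6 against 38 and 50.3 CPM per kb. *Asx*, the cofactor of the deubiquitinase calypso, had 45.8 and 45.3 against 35.0 and 43.3 CPM per kb. Each of these genes lay below the one before it within every library. The lowest tested genes were *pho*, *Psc* and *Pc*. *Pc*, the founding member of the group, had 4.31 and 6.66 CPM per kb in the GAF knockdown against 4.31 and 5.95 in the Mi-2 knockdown, the lowest level of the 36. *Psc*, a RING finger subunit of PRC1, had 11.9 and 8.81 against 8.53 and 9.77 CPM per kb. *pho*, on chromosome 4, encodes a DNA-binding protein that recruits Polycomb complexes and had 10.4 and 11.3 against 10.2 and 9.50 CPM per kb. *Pc* lay below *Psc* and *pho* in every library, and these overlapped each other.

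**Figure D2:**
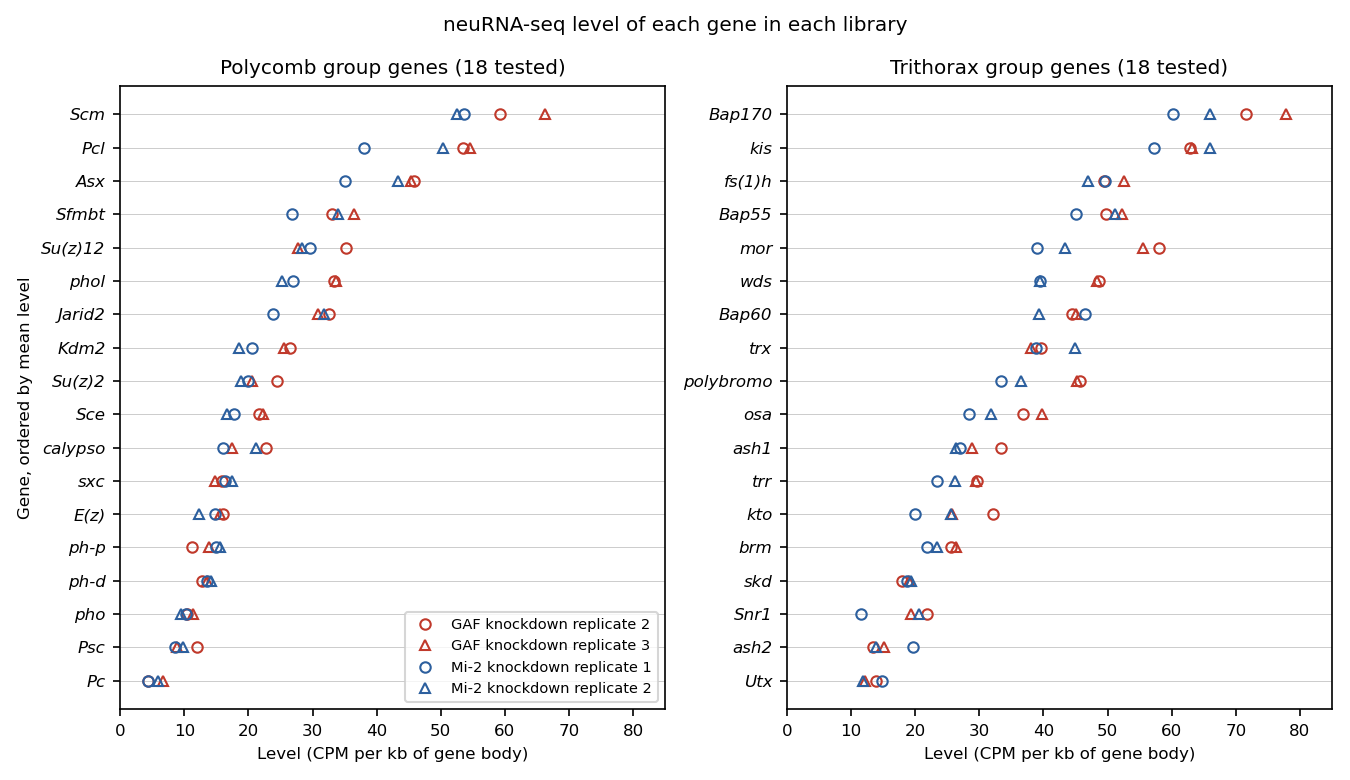
Level of each tested gene in CPM per kb of gene body, with 1 point for each library (red, GAF knockdown; blue, Mi-2 knockdown), for Polycomb genes (left) and Trithorax genes (right) ordered by mean level. Levels run from 5.31 CPM per kb for *Pc* to 68.9 CPM per kb for *Bap170*, a far wider range than the gap between the knockdowns of any gene.

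The remaining members could not be tested. *esc*, the WD40 subunit of PRC2 (chromosome 2L, 11827204 to 11829405, minus strand), had 0 counts in all 4 libraries. Its body lies wholly within *Pde1c* on the same strand, and counting of this kind discards reads shared by genes of 1 strand, so this 0 is no measure of *esc*. Its paralog *escl* had 27.6 and 27.4 CPM in the GAF knockdown against 29.8 and 30.1 CPM in the Mi-2 knockdown, and was not called (log2 fold change -0.13, adjusted p = 0.831). *corto*, which encodes a chromodomain protein, had 0 and 4 counts in the GAF knockdown against 5 and 6 counts in the Mi-2 knockdown, too few for the filter. That is 0 and 0.315 CPM against 1.26 and 1.08 CPM, and the 0 counts allow up to 0.491 CPM. Both GAF knockdown libraries were thus below both Mi-2 knockdown libraries, at counts too low for a test. Of the 38 genes, 35 had no overlap with another gene of their strand, and *kis* and *skd* had 0.5% and 0.4% of their length covered.

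The subunits of the Brahma remodelers were the complex with the most calls, and with 8 genes also the largest listed. Brahma is the ATPase that slides or evicts nucleosomes, and it acts in the BAP form with osa or in the PBAP form with polybromo and Bap170. All 8 listed subunits had a positive log2 fold change, from 0.07 to 0.46 with a median of 0.30. Of all genes tested, 49.7% were positive. Called higher were 3 of the 8 (37.5%), against 3.40% of all genes. Both GAF knockdown libraries lay above both Mi-2 knockdown libraries for 5 of the 8 (62.5%), against 24.8% of all genes. The summed level was 2600 and 2720 CPM in the GAF knockdown, against 2050 and 2260 CPM in the Mi-2 knockdown. Mi-2 knockdown replicate 1 was the lowest library for 7 of the 8 (87.5%), against 32.7% of all genes. With that library left out, log2 fold changes ran from -0.00 for *Snr1* and 0.00 for *Bap55* to 0.39 for *mor*.

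*mor* (chromosome 3R, 15968134 to 15972913, minus strand) encodes the scaffold subunit moira and had the largest log2 fold change of the set. It had 277 and 265 CPM in the GAF knockdown, against 186 and 208 CPM in the Mi-2 knockdown. The groups did not overlap, and the gap between them was wider than that between the replicates of either. The means were 271 ± 8.35 and 197 ± 15.1 CPM (SD, n = 2 each), a 1.38-fold difference. The log2 fold change was 0.46 ± 0.114 (SE) with an adjusted p of 0.0431.

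*osa* (chromosome 3R, 17687818 to 17718350, minus strand), which encodes the ARID domain subunit of BAP, is the longest of the called genes and carried the most counts. It had 1120 and 1210 CPM in the GAF knockdown, against 868 and 970 CPM in the Mi-2 knockdown. The lower GAF knockdown library was above the higher Mi-2 knockdown library by more than the replicates of either knockdown differed. The means were 1170 ± 63.0 and 919 ± 71.8 CPM (SD, n = 2 each), and the log2 fold change was 0.35 ± 0.0829 (SE, adjusted p = 0.0371). *polybromo* (chromosome 3R, 24799967 to 24805259, minus strand), which encodes the subunit with several bromodomains in PBAP, had 242 and 239 CPM in the GAF knockdown, against 176 and 193 CPM in the Mi-2 knockdown. The GAF knockdown libraries were nearly equal and both above the Mi-2 knockdown. Its log2 fold change was 0.38 ± 0.115 (SE, adjusted p = 0.0881), close to the threshold.

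The other subunits were not called. *Bap170* had 418 and 455 CPM in the GAF knockdown against 352 and 386 CPM in the Mi-2 knockdown, without overlap (log2 fold change 0.24, adjusted p = 0.196). *brm*, the ATPase itself, had 327 and 338 against 280 and 299 CPM, also without overlap (log2 fold change 0.20, adjusted p = 0.308). *Snr1* had 40.1 and 35.3 against 20.9 and 37.7 CPM, so its log2 fold change of 0.35 rested on a single low library, Mi-2 knockdown replicate 1, and came to -0.00 without it. *Bap60* and *Bap55*, further core subunits, had log2 fold changes of 0.07 and 0.08 with overlapping libraries.

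The genes of the COMPASS family were mixed, with a median log2 fold change of -0.04 over 5 genes and no call (0 by DESeq2, and 1 higher and 0 lower at an unadjusted p under 0.05). *wds*, a WD40 core subunit shared by several complexes, had 109 and 108 CPM in the GAF knockdown against 88.3 and 88.3 CPM in the Mi-2 knockdown, without overlap and with replicates that were nearly equal, yet its difference was not called (log2 fold change 0.30 ± 0.140, adjusted p = 0.274). *trr*, one of the methyltransferases, had 257 and 254 against 202 and 226 CPM, without overlap (log2 fold change 0.25, adjusted p = 0.247). *trx*, the methyltransferase that gave the group its name, had 932 and 895 CPM in the GAF knockdown against 916 and 1060 CPM in the Mi-2 knockdown (log2 fold change -0.11 ± 0.0864, adjusted p = 0.541). Its GAF knockdown libraries lay around the lower Mi-2 knockdown library. *ash2* had 43.6 and 49.0 against 63.8 and 44.9 CPM (log2 fold change -0.22, adjusted p = 0.644), and *Utx* 89.9 and 78.7 against 96.1 and 76.7 CPM (log2 fold change -0.04), with overlapping libraries in both.

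Among the other Trithorax genes, *kto*, the Med12 subunit of the kinase module of Mediator, had 267 and 215 CPM in the GAF knockdown against 166 and 214 CPM in the Mi-2 knockdown. The nearest libraries of the groups were almost level, and the difference was not called (log2 fold change 0.34 ± 0.154, adjusted p = 0.249). Its partner *skd*, which encodes Med13, had 617 and 657 against 646 and 666 CPM, with overlap (log2 fold change -0.04 ± 0.0819, adjusted p = 0.836). *ash1*, a histone H3 lysine 36 methyltransferase, had 266 and 231 against 215 and 210 CPM, without overlap (log2 fold change 0.22, adjusted p = 0.336). *kis* and *fs(1)h*, with log2 fold changes of 0.03 and 0.08, had the smallest standard errors of the set, 0.0743 and 0.0738, and overlapping libraries. *kis* had 2510 and 2520 CPM in the GAF knockdown against 2280 and 2630 CPM in the Mi-2 knockdown, the most CPM of any member.

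**Figure D3:**
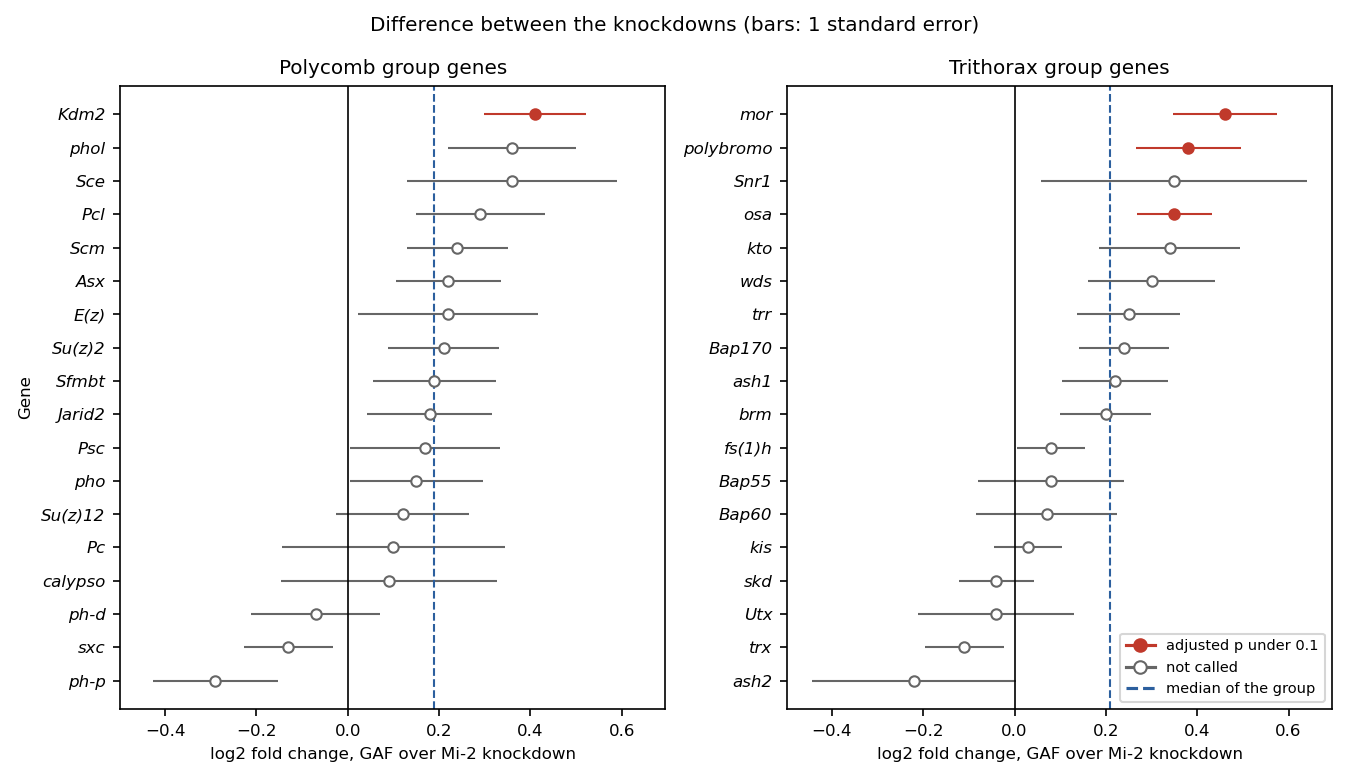
log2 fold change (GAF knockdown over Mi-2 knockdown) of each tested gene, with bars of 1 standard error from edgeR. Filled red points are the 4 genes with an adjusted p under 0.1, and dashed lines mark the medians of 0.19 for the Polycomb genes and 0.21 for the Trithorax genes. Most points lie right of 0, and the lowest is *ph-p* at -0.29.

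In the Polycomb group the only call was *Kdm2* (chromosome 3R, 9052495 to 9063245, plus strand), a JmjC and F-box protein that removes methyl groups from histone H3 lysine 36 and forms a complex with Sce and Psc in the fly. It had 285 and 274 CPM in the GAF knockdown, against 221 and 200 CPM in the Mi-2 knockdown. The groups did not overlap, with means of 280 ± 7.63 and 210 ± 14.6 CPM (SD, n = 2 each). The difference was 1.33-fold, a log2 fold change of 0.41 ± 0.111 (SE, adjusted p = 0.0627). The rest of the group spanned log2 fold changes of -0.29 to 0.36.

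None of the 7 genes of PRC1 was called, by DESeq2 either or at an unadjusted p under 0.05, and 5 had positive log2 fold changes. *Sce*, the ligase that ubiquitylates histone H2A, had 34.7 and 35.5 CPM in the GAF knockdown, against 28.3 and 26.7 CPM in the Mi-2 knockdown. The groups did not overlap, but at this level the standard error was large (log2 fold change 0.36 ± 0.230, adjusted p = 0.447). *Scm* had 252 and 282 against 228 and 223 CPM, without overlap (log2 fold change 0.24, adjusted p = 0.258). *Psc* had 178 and 132 against 128 and 147 CPM, and its neighbour and relative *Su(z)2* had 278 and 234 against 227 and 216 CPM. For *Psc* the groups overlapped and GAF knockdown replicate 2 stood above the rest, and for *Su(z)2* they did not overlap (log2 fold changes 0.17 and 0.21). *Pc* had 51.3 and 79.1 CPM in the GAF knockdown against 51.2 and 70.8 CPM in the Mi-2 knockdown, and the replicates within each knockdown differed far more than the groups (log2 fold change 0.10 ± 0.244, adjusted p = 0.873).

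The *polyhomeotic* genes *ph-p* and *ph-d* ran the other way. They are a tandem duplication on chromosome X (*ph-d* at 2115727 to 2123286 and *ph-p* at 2126210 to 2138371, minus strand), and because their copies are alike, how reads were divided between them is uncertain. *ph-p* had 136 and 167 CPM in the GAF knockdown, against 182 and 189 CPM in the Mi-2 knockdown. Both GAF knockdown libraries were lower, and the difference was not called (log2 fold change -0.29 ± 0.137, adjusted p = 0.279). *ph-d* had 96.7 and 103 against 102 and 108 CPM, with overlap (log2 fold change -0.07, adjusted p = 0.846).

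For PRC2, the 4 tested genes had positive log2 fold changes, from 0.12 to 0.29, and none was called (0 by DESeq2, and 0 at an unadjusted p under 0.05). *E(z)*, the methyltransferase, had 56.9 and 55.4 CPM in the GAF knockdown against 52.7 and 43.9 CPM in the Mi-2 knockdown (log2 fold change 0.22 ± 0.197, adjusted p = 0.599). *Pcl* had 244 and 249 against 173 and 230 CPM. In both genes the groups did not overlap, but 1 Mi-2 knockdown library lay close to the GAF knockdown, replicate 1 for *E(z)* and replicate 2 for *Pcl* (log2 fold change 0.29, adjusted p = 0.289). *Su(z)12* and the accessory subunit *Jarid2* overlapped between groups, with log2 fold changes of 0.12 and 0.18.

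The DNA-binding arm of the system, the Pho repressive complex, has the paralogs *pho* and *phol* and the MBT domain protein *Sfmbt*. *phol* had 116 and 117 CPM in the GAF knockdown, against 93.9 and 87.9 CPM in the Mi-2 knockdown. The replicates of each knockdown were close and the groups did not overlap, and the log2 fold change of 0.36 ± 0.140 had an adjusted p of 0.178. *pho* had 95.4 and 104 against 93.1 and 87.0 CPM, without overlap but with a smaller log2 fold change of 0.15 (adjusted p = 0.639). *Sfmbt* had 236 and 260 against 192 and 242 CPM (log2 fold change 0.19). Of the deubiquitinase complex that reverses the PRC1 mark, *Asx* had 391 and 387 against 299 and 369 CPM without overlap (log2 fold change 0.22, adjusted p = 0.338), and *calypso* had 51.6 and 39.6 against 36.6 and 48.2 CPM with overlap (log2 fold change 0.09). *sxc*, the O-GlcNAc transferase that modifies the PRC1 subunit Ph, had 354 and 330 CPM in the GAF knockdown against 363 and 388 CPM in the Mi-2 knockdown. Both GAF knockdown libraries were lower, and the difference was not called (log2 fold change -0.13 ± 0.0977, adjusted p = 0.508).

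The 4 calls depended on the libraries. With either GAF knockdown library left out, none of the 4 was called, while the log2 fold changes stayed between 0.28 and 0.48. Without Mi-2 knockdown replicate 1, *Kdm2* (0.48, adjusted p = 0.00271), *mor* (0.39, adjusted p = 0.0279) and *osa* (0.27, adjusted p = 0.00566) were called and *polybromo* was not (0.32, adjusted p = 0.123). Without Mi-2 knockdown replicate 2 all 4 were called, with log2 fold changes of 0.35 for *Kdm2*, 0.55 for *mor*, 0.44 for *osa* and 0.46 for *polybromo*. Over the set, the median log2 fold change of the Polycomb genes was 0.09 with Mi-2 knockdown replicate 1 left out and 0.30 with replicate 2 of that knockdown left out, and that of the Trithorax genes stayed between 0.16 and 0.24 whichever library was left out. Without Mi-2 knockdown replicate 2, more Polycomb and Trithorax genes were called higher, and so were more of all genes tested. Each of these fits leaves a lone library in 1 knockdown, so the number of calls in the set was not compared with that over all genes.

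**Figure D4:**
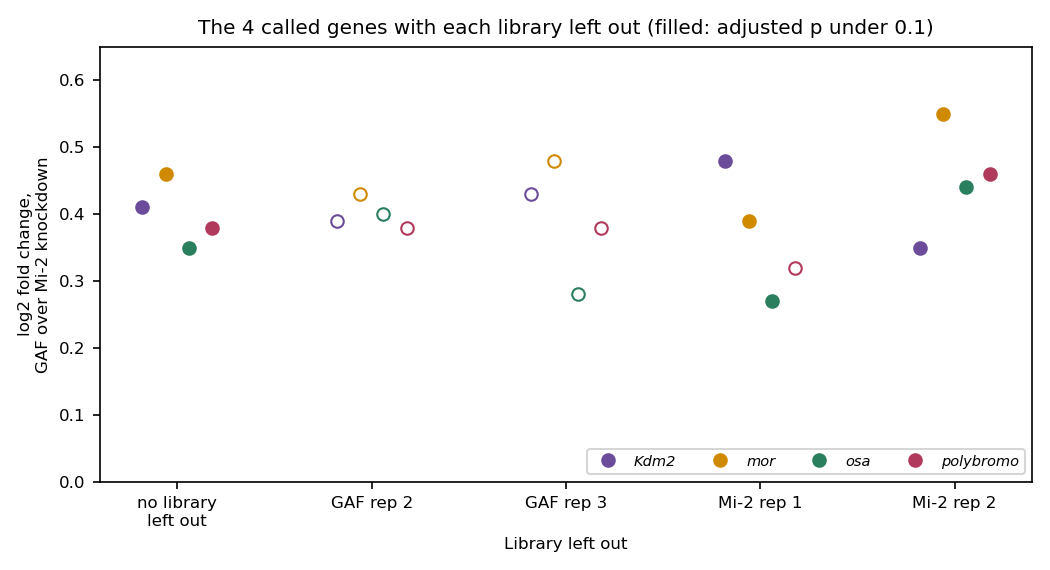
log2 fold change (GAF knockdown over Mi-2 knockdown) of the 4 called genes with all libraries and after leaving out 1 library at a time. Filled points have an adjusted p under 0.1. Without either GAF knockdown library no point is filled, and the values lie between 0.27 and 0.55 throughout.

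Gene length went with the difference between the knockdowns over all genes. The median log2 fold change of all genes tested was 0.00 under 3 kb, 0.06 from 3 to 10 kb, -0.06 from 10 to 20 kb and -0.22 for genes of 20 kb and longer. The medians of the set were higher in each class: 0.20 for 6 genes under 3 kb, 0.22 for 18 genes from 3 to 10 kb, 0.18 for 6 genes from 10 to 20 kb and -0.00 for 6 genes of 20 kb and longer, which were *sxc*, *trx*, *osa*, *kis*, *fs(1)h* and *skd*. With the trend on length taken out, *polybromo* was no longer called although its log2 fold change stayed at 0.32 (adjusted p = 0.161), *kis* was called higher (log2 fold change 0.26, adjusted p = 0.0845), and *trx* and *skd* had positive log2 fold changes of 0.02 and 0.15. The part of length in the differences was otherwise not tested. All 4 called genes lie on chromosome 3R, which holds 10 of the 38 genes. The share of all genes on this arm was not counted, and its part was not tested. The other tested members there were not called. *Sce*, *Scm* and *Snr1* had log2 fold changes of 0.36, 0.24 and 0.35, and *trx* and *ash2* of -0.11 and -0.22.

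**Figure D5:**
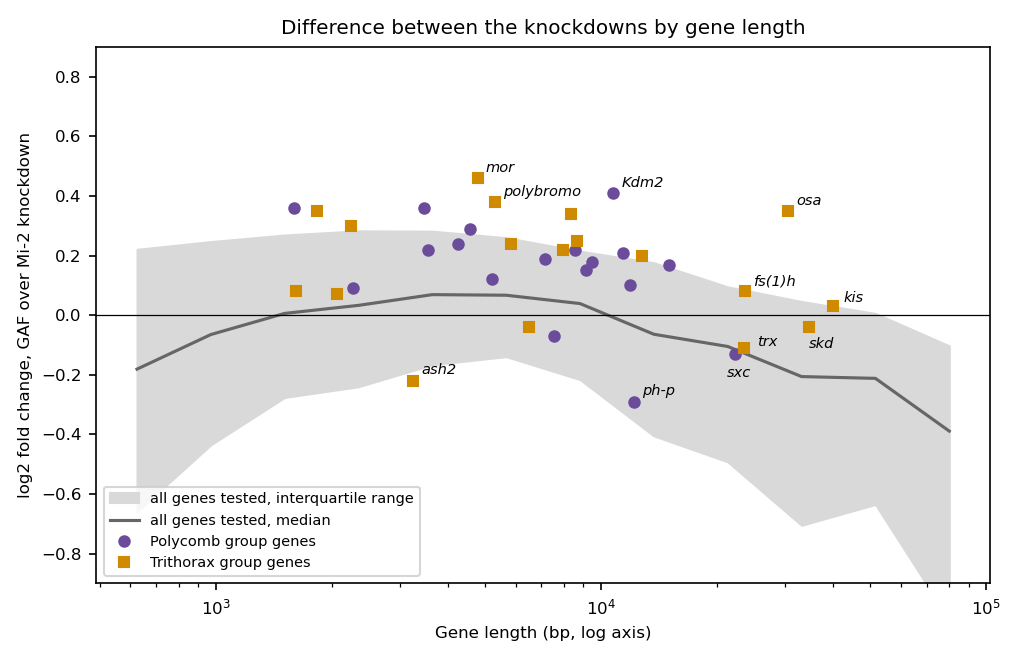
log2 fold change (GAF knockdown over Mi-2 knockdown) against gene length on a log axis, for the Polycomb genes (circles) and the Trithorax genes (squares). The line and the grey band are the median and the interquartile range of all genes tested. The median of all genes falls to -0.22 for genes of 20 kb and longer, and *osa* lies above the band at 0.35.

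A further list of 35 genes that are not in the set but were listed as related to it was read in the same fit. It holds 14 genes related to the Polycomb group and 21 to the Trithorax group, and all were tested. 22 of the 35 (62.9%) had a positive log2 fold change, against 49.7% of all genes tested, with a median of 0.14. Called were 3 higher (8.57%) and 1 lower, against 3.40% and 6.06% of all genes. Without overlap, 13 (37.1%) were higher and 9 lower, against 24.8% and 26.0% of all genes. *Dpy-30L1*, *CycC* and *Rbbp5* were among these lower genes, with log2 fold changes of -0.97, -0.60 and -0.40, and were not called. Among the 13 higher genes, *Lpt*, *Cfp1*, *Rpd3* and *Spps* had log2 fold changes of 0.67, 0.57, 0.45 and 0.42 and were not called either. DESeq2 called 6 higher and 1 lower, against 340 and 542 of the 7826 genes tested. *e(y)3*, which encodes another subunit particular to PBAP, had 561 and 568 CPM in the GAF knockdown against 417 and 482 CPM in the Mi-2 knockdown, without overlap (log2 fold change 0.33, adjusted p = 0.0795). *Dp1*, a KH domain RNA-binding protein, had 893 and 918 against 697 and 697 CPM (log2 fold change 0.38, adjusted p = 0.0171). *tara*, a Trithorax group gene with a role in the cell cycle, had 199 and 205 CPM in the GAF knockdown against 102 and 145 CPM in the Mi-2 knockdown, the largest called difference of this list (log2 fold change 0.70, adjusted p = 0.0336). *Nipped-B*, the loader of cohesin, was the only one lower, with 1460 and 1400 against 1680 and 1670 CPM (log2 fold change -0.23, adjusted p = 0.0753), and its log2 fold change was -0.02 with the trend on length taken out. Without GAF knockdown replicate 2 (adjusted p = 0.173 to 0.440) or GAF knockdown replicate 3 (adjusted p = 0.246 to 0.383) none of these 4 was called, and *e(y)3* was not called without Mi-2 knockdown replicate 1 (adjusted p = 0.109).

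Classical targets of the Polycomb system were read in the same fit. Of 20 listed genes, 19 had a row, 8 passed the filter and none was called (0 higher and 1 lower at an unadjusted p under 0.05, and 0 higher and 1 lower by DESeq2). Of the Hox genes, *Dfd* was the only one well above the floor, with 21.9 and 30.9 CPM in the GAF knockdown against 19.2 and 35.6 CPM in the Mi-2 knockdown, where the replicates differed more than the groups. *Antp* had 0 and 3 counts in the GAF knockdown against 13 and 14 counts in the Mi-2 knockdown (adjusted p = 0.178). *Ubx* had 0 and 1 counts against 13 and 6 counts, and *Scr* had 0 and 0 counts against 5 and 3 counts. These 3 genes had fewer counts in the deeper GAF knockdown libraries, at numbers near the limit of detection, and *Ubx* and *Scr* were too low to test. *lab*, *pb*, *abd-A* and *Abd-B* had at most 5 counts in any library, and *en* had 0 in all. Other targets were well counted: *exd* had 124 and 136 CPM in the GAF knockdown against 101 and 109 CPM in the Mi-2 knockdown, *pnr* had 117 and 100 against 85.5 and 90.3 CPM, and *cad* had 32.3 and 31.8 against 25.5 and 33.4 CPM. For *exd* and *pnr* the groups did not overlap, and no call was made (adjusted p = 0.249 and 0.304). *hth* was lower without overlap, at low levels of 5.35 and 2.04 CPM in the GAF knockdown against 12.6 and 7.76 CPM in the Mi-2 knockdown. It was not called (log2 fold change -1.49, adjusted p = 0.252). Of the 8 tested targets, 2 were thus higher without overlap and 2, *Antp* and *hth*, lower. Over all genes these shares were 24.8% and 26.0%.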

How the data were processed

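Kc167 libraries of neuRNA-seq were analysed, 2 of the GAF knockdown and 2 of the Mi-2 knockdown. The authors' methods for neuRNA-seq, which do not name these libraries, give trimming with cutadapt 1.10, mapping to dm6 with HISAT2 2.0.4 and counting with featureCounts 1.5.0-p3 on the sense strand over whole gene bodies. What the authors deposited is a table of raw counts, by gene and library, without normalization or pooling. A second, identical table was left aside. There are 6 further columns, named as mock and Dcr-2 knockdown, whose names match no sample label. They were used in no step, so the planned comparison with mock was not made. GAF knockdown replicate 1 and the other samples were not analysed here, nor were promoter sequences.

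Total counts per library ranged from 3966515 to 12563919. A count of 0 allows up to 3 counts, or 0.239 to 0.756 CPM, which covers counting error only. Chi-square divided by its degrees of freedom was 9.59 for the pair of GAF knockdown libraries and 9.63 for the Mi-2 knockdown pair, above sampling noise, so both libraries of a pair were kept. Genes were filtered with filterByExpr, scaled by TMM (factors 0.976 to 1.01) and tested with edgeR's quasi-likelihood test (edgeR 4.0.16, R 4.3.3), with Benjamini-Hochberg adjustment over 7826 genes and a threshold of 0.1, as in the study's methods. Standard errors are the log2 fold change over the square root of the F statistic. The smallest p of an exact permutation test with 2 libraries in each group is 0.333, so none was run. The scripts were tested on simulated data. The gene changes planted there were larger than those called in the set, so recovery at the sizes reported here was not tested.

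The alternatives were RLE, upper-quartile and library size scaling, no filter, DESeq2 1.42.0 on the same genes, a threshold of 0.05, thinning to equal depth, a lowess trend (span 0.3, 3 iterations) on log2 gene length as an offset, whole gene bodies as the length, and each library left out. The members and lists were chosen with earlier results of these data known. Library values were set to be given for members called, for members without overlap between groups whose log2 fold change was 0.3 or more in size, for the highest and lowest 3 of each list per kb, and for members that share sequence or lie under another gene. Values of the remaining members named were added after they were seen. Positions, lengths and overlaps are from Ensembl release 115 for dm6, which matched 17464 of 17659 identifiers. The authors counted on an earlier annotation of the same assembly.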

Additional observations from a re-analysis of the deposited data

How the results depend on the processing

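The limits are the number of libraries, 2 in each group, and their depth. With every library kept, of the log2 fold changes of the 36 tested genes under the alternatives, 247 kept their direction and their side of the threshold, 2 changed direction, 2 gained a call (*kis* with the length trend removed, *kto* without the filter) and 1 lost it (*polybromo* with the length trend removed). With the length trend removed, *trx* came to 0.0219 and *skd* to 0.154. A threshold of 0.05 left 0 Polycomb genes higher and 128 of all genes, and without the filter 494 of all genes were higher. The other scalings moved the median of all genes by at most 0.03.

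Leaving out 1 library at a time gave 0 to 5 Polycomb and 0 to 8 Trithorax genes higher, 0 to 1 Trithorax genes lower (*trx* without Mi-2 knockdown replicate 1), and medians of 0.09 to 0.30 for the Polycomb genes and 0.16 to 0.24 for the Trithorax genes. Over all genes it gave 32 to 998 higher and 154 to 818 lower. The genes gained without Mi-2 knockdown replicate 2 were *Asx*, *Jarid2*, *Pcl* and *Sfmbt* of the Polycomb group and *Bap170*, *Snr1*, *kis*, *kto* and *trr* of the Trithorax group. Genes whose direction turned were *Pc* (-0.262 to 0.375), *Psc* (-0.0529 to 0.367), *Su(z)12* (-0.0612 to 0.274), *Jarid2* (-0.00399 to 0.424), *calypso* (-0.0998 to 0.321), *trx* (-0.208 to 0.00905), *ash2* (-0.446 to 0.0487), *Utx* (-0.181 to 0.134), *Snr1* (-0.00359 to 0.856), *Bap60* (-0.0388 to 0.193), *kis* (-0.0633 to 0.153) and *skd* (-0.0973 to 0.00513). A lone library left in a group is assumed to vary like those of the other group, so the counts of calls in these fits do not set the members apart from all genes. The cause of these changes was not tested. No paired analysis was possible because GAF knockdown replicates 2 and 3 and Mi-2 knockdown replicates 1 and 2 share only the replicate number 2.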
